A study of Homo sapiens with 9 samples.

Results

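The histone genes described here are the 61 rows of the expression table whose symbol follows the current naming of linker histone H1 genes (H1- and a number) or of the core histone clusters (H2AC, H2BC, H3C or H4C and a number), out of 17083 genes. They comprise 9 H1, 14 H2A, 15 H2B, 11 H3 and 12 H4 genes. In the GENCODE 29 annotation of GRCh38, 48 of them lie on chromosome 6 and 10 on chromosome 1, where histone genes are clustered, while H1-10 and H1-7 lie alone on chromosomes 3 and 12. The cells were HEK293T, a line from human embryonic kidney that carries the SV40 large T antigen, labelled as epithelial and wild type. They overexpressed PLK2 (a polo-like kinase), PLK2(D223N) (the same kinase with a substitution in the kinase domain) or received the FLAG Vector alone, with 3 replicates in each group. The labels used here do not say whether replicates were separate cultures, so p-values measure the spread between these libraries, which may be technical. The labels give neither the time between transfection and harvest nor whether the constructs were transient, and overexpression in this line says nothing of the kinase at its own level. The design asks which transcripts change with the kinase and, through PLK2(D223N), with its substituted form.

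Core histones H2A, H2B, H3 and H4 form the nucleosome around which DNA is wound, and H1 binds the linker DNA between nucleosomes. Most genes of the clusters are transcribed during DNA replication, and their mRNA ends in a conserved stem-loop, bound by SLBP, instead of a poly(A) tail. A minority of histone transcripts is cleaved at a downstream poly(A) signal and polyadenylated, among them those of replication-independent genes such as H1-10. Per the labels' protocols, RNA was selected with oligo(dT) beads, so the values below describe transcripts that bound those beads and do not measure total histone mRNA.

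The stem-loop is printed first because it is the element that sets these mRNAs apart. It was searched in the GENCODE 29 transcripts, downstream of the stop codon, as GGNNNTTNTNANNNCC on the transcript strand with all bases of the stem paired. It was found in 26 members. In 4 members with an annotated 3′ untranslated region long enough to hold it (among them H1-10, H1-7 and H2BC11) it was not found, and the annotation of the other 31 stops too early to tell. H2BC11 has annotated transcripts of up to 2 exons. Whether they cover the bases directly after its stop codon was not checked. The capitals mark the stem and the lower case letters the loop, 5′ to 3′. The most frequent form, shared by 14 members including H2AC18, is printed with the variants of the members named below.
H2AC18, chr1:149842223-149842238, minus strand: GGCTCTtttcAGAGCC
H2BC5, chr6:26158587-26158602, plus strand: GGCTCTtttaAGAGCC
H3C6, chr6:26225596-26225611, plus strand: GGCTCTtctcAGAGCC
H2AC11, chr6:27133515-27133530, plus strand: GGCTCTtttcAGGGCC
H4C15, chr1:149860769-149860784, minus strand: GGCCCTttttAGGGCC
H4C11, chr6:27824459-27824474, plus strand: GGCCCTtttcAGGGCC
The 7 H4 members with a stem-loop all had the GGCCCT stem. No other class had that 5′ arm, while H2AC11 alone combined the 5′ arm GGCTCT with the 3′ arm AGGGCC. The annotated H3C6 transcript runs 1862 bases past its stem-loop, that of H2BC5 39 bases and that of H2AC18 35 bases.

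An AATAAA or ATTAAA poly(A) signal lay in the last 50 bases of an annotated transcript of 21 members. Their median level over the 9 libraries was 6.99 TPM (the authors' deposited value, which is scaled to transcript length and library size), and 16 of them passed the filter on low counts. The other 40 members had a median of 1.26 TPM, and 6 passed. Many of these 40 have annotated transcripts that end with the coding sequence, so no signal could be found in them. H3C6, H2BC5 and H2AC18 were among those with a signal. H4C11 was too, but its annotated transcript ends 6 bases after its stem-loop, so the match may lie upstream of the stem-loop. Levels among the 40 reached 232 TPM, for H2BC12, which is 1 of those whose annotated transcript stops at the end of the coding sequence.

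Histone promoters carry elements by class, and these were searched on both strands in the RefSeq promoter table (GRCh38.p14, 250 bases before to 50 after each start), which matched 56 of the 61 members. The octamer ATTTGCAT, bound by POU2F1, was in the promoter of 12 of 15 H2B and 10 of 13 H2A genes, in 1 of 10 H3 genes and in none of the 8 H1 and 10 H4 genes matched, against 2.19% of all genes in that table (1.77% of its windows). TATAAA was in 39 of 56 members against 3819 of 27305 genes in the table (11.5% of windows). CCAAT was in 46 of 56 members, but in only 1 of 10 H4 genes, against 39.7% of all genes (34.6% of windows). The 130 bases before the start are shown for the highest H2B member and for the 3 genes that differed from Vector below, with matches to these 3 motifs in capitals (ATTGG is CCAAT on the other strand). Where the table lists more than 1 start, the most upstream was used.
H2BC12, chr6:27146859-27146988, minus strand: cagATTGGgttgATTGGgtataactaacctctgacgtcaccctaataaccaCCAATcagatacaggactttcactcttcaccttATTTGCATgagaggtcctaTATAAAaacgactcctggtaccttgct
H2BC5, chr6:26157991-26158120, plus strand: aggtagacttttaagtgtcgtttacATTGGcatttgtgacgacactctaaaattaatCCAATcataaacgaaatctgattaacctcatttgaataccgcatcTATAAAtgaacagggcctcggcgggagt
H3C6, chr6:26224048-26224177, plus strand: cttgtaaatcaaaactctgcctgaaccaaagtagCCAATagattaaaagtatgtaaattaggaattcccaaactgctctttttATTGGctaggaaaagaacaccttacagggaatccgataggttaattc
H2AC18, chr1:149842751-149842880, minus strand: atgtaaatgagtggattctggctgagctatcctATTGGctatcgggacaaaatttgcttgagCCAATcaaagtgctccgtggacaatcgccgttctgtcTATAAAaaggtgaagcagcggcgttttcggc
No matches overlapped in these stretches. H2BC12 had all 3 motifs, with the octamer starting 46 and TATAAA 27 bases before the start. H2BC5 and H2AC18 had CCAAT on both strands and TATAAA at 28 and 31 bases before the start. The stretch of H3C6 held CCAAT on both strands and neither of the other motifs.

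The libraries held between 14288165 and 16510186 estimated counts, and the histone genes took between 0.0292% and 0.0369% of them. The Vector libraries differed more among themselves than the others, with a chi-square per gene of 17.8 between replicates 1 and 2 and 10.8 between replicates 1 and 3, against 2.69 between replicates 2 and 3 and 1.63 to 2.81 between libraries with the same form of the kinase. PLK2 itself had 3.42 ± 0.64 CPM in Vector, 12360 ± 1650 CPM in PLK2(D223N) and 23740 ± 2384 CPM in libraries with PLK2 (SD, n = 3 each; CPM are counts scaled to library size with TMM factors), so PLK2 and PLK2(D223N) libraries also differed in the level of the transgene. Of 8 genes listed as markers of HEK293 cells, 5 reached a mean of 1 CPM, and PAX2, LHX1 and NEFM did not. The 8 summed to 572.8 to 651.3 CPM, most of it from VIM (mean 514 CPM). Markers of microglia and leukocytes summed to at most 1.05 CPM, of endothelium to 0.43 CPM, of hepatocytes to 1.39 CPM and of fibroblasts to 4.36 CPM, mainly COL3A1 (mean 3.80 CPM).

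**Figure D1:**
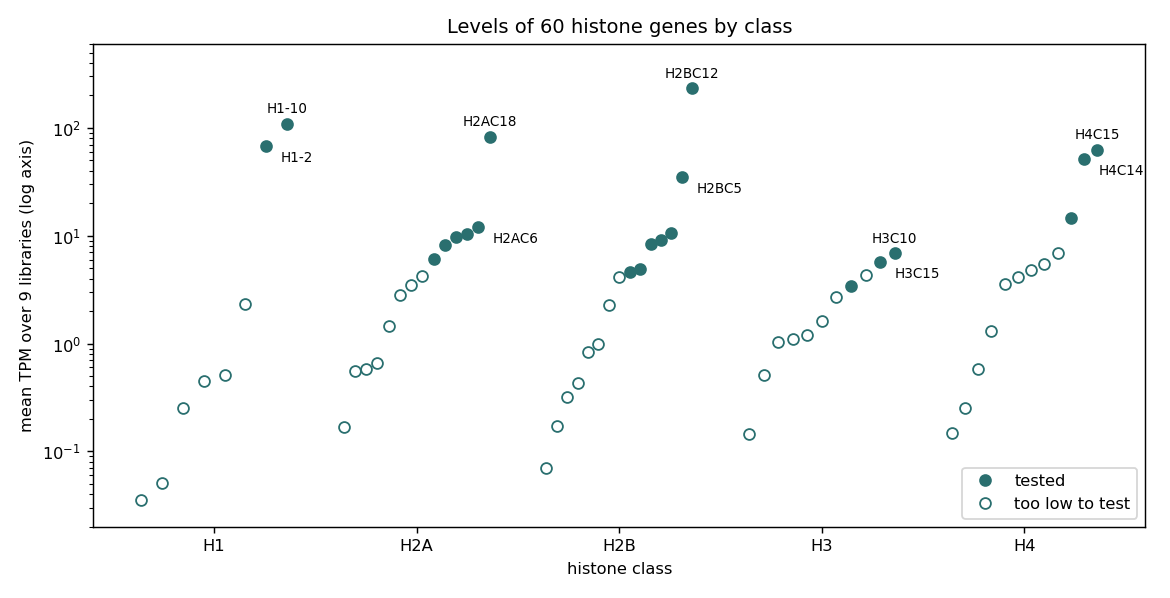
Mean TPM of 60 histone genes over 9 libraries (vertical log axis), by class; filled circles passed the filter on low counts and open circles did not. In each class between 1 and 3 genes stood above the rest, save H3, where the highest gene, H3C10, was at 6.86 TPM.

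Most of the signal came from few genes. Per length, H2BC12 was the highest member at a mean of 232 TPM over the 9 libraries, and other high members were H1-10 at 109 TPM, H2AC18 at 82.8 TPM, H1-2 at 67.6 TPM, H4C15 at 62.0 TPM and H4C14 at 51.7 TPM. The highest member by CPM held 61.9% of the summed CPM of H2A (H2AC18), 78.7% of H2B (H2BC12), 61.7% of H3 (H3C6) and 67.3% of H4 (H4C15). H3C6 reached its share through a long transcript, since per length it was at 3.39 TPM, below H3C10 (6.86 TPM) and H3C15 (5.77 TPM). At the low end, 39 members did not pass the filter (about 10 counts in at least 3 libraries). The untested members had median totals over all 9 libraries of 12 counts in H1, 19.5 in H2A, 8 in H2B, 21 in H3 and 27 in H4, and no single library exceeded 20 counts, a value reached by H1-4. Every one of them had at least 1 count in some library. Of the 22 tested members, 21 had libraries above the cutoff in all 3 groups. The exception, H2AC11, passed through 2 PLK2 libraries and 1 PLK2(D223N) library.

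Near-identical copies limit what a single row can say. Windows of 100 bases were compared with all other GENCODE 29 transcripts. In 41 members every window was unique, in 13 fewer than 50% were, and in 6 none was. Among the most abundant genes, H2AC18 shared all windows with its inverted copy, listed as HIST2H2AA4 and now called H2AC19, which is not analysed here, so the H2AC18 row cannot be assigned to 1 of these copies. H3C6 and H2BC5 were unique throughout.

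**Figure D2:**
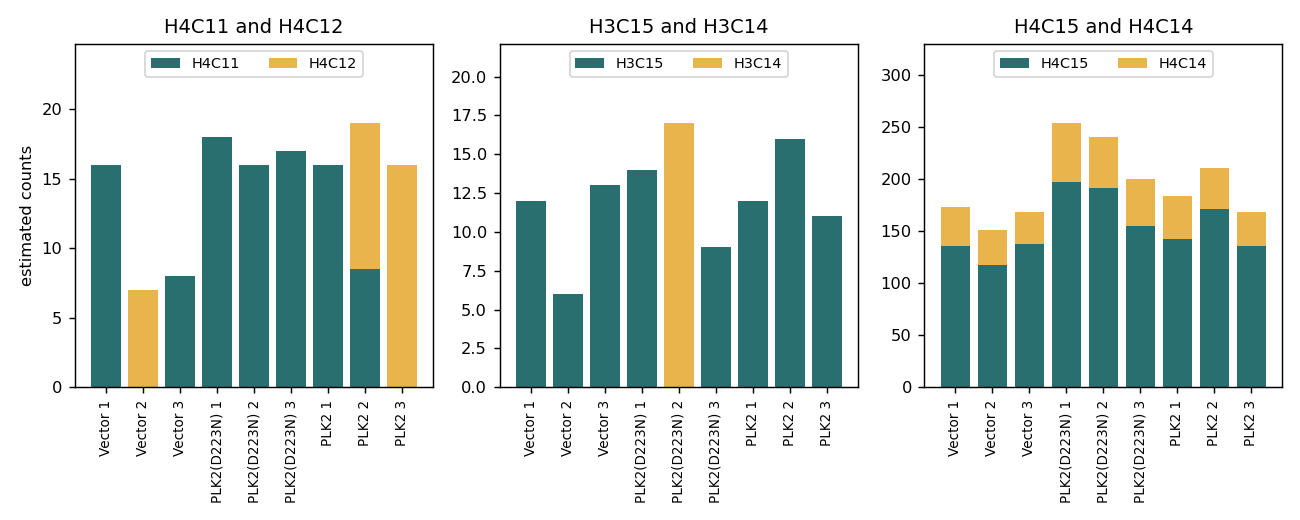
Estimated counts of 3 pairs of near-identical genes in each of the 9 libraries (stacked bars from 0). The counts of H4C11 and H4C12, and of H3C15 and H3C14, moved from one copy to the other between libraries of the same group, while H4C15 held the larger part of its pair in all 9 libraries.

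The deposited counts show how such copies were divided. Of the 61 members, 11 had a count that was not whole (beyond 0.005) in some library. The counts of H2AC13 and H2AC14, H4C11 and H4C12, H4C14 and H4C15, and H2AC7 and H3C4 added up to whole numbers in all 9 libraries (within 0.021). Both counts were fractional in 2, 1, 4 and 8 libraries for these pairs, in that order. In the remaining libraries both were whole already, so a whole sum there says nothing. The last pair is not alike in sequence, but both genes lie within transcripts of the GENCODE locus AL031777.3. H4C11 and H4C12, which both encode H4, changed places: the Vector libraries had 16, 0 and 8 counts on H4C11 and 0, 7 and 0 on H4C12, while PLK2 replicate 3 had 0 on H4C11 and 16 on H4C12. Their sum was 16, 7 and 8 in Vector, 18, 16 and 17 in PLK2(D223N) and 16, 19 and 16 in PLK2 libraries. Likewise H3C14 was listed at 0 in 8 libraries and at 17 counts in PLK2(D223N) replicate 2, the only library in which its identical copy H3C15 was at 0. Values for H4C11, H3C15 and H2AC13 alone are therefore uncertain. H2BC12, H2BC18 and H2BC21 also had fractional counts, without a member whose counts completed theirs in this way.

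Against Vector, 3 histone genes rose with PLK2 by edgeR's quasi-likelihood test with Benjamini-Hochberg adjustment over all 12924 tested genes, 1 each of H3, H2B and H2A: H3C6, H2BC5 and H2AC18. No histone gene fell. The 3 genes are set against 0.48% of all tested genes called higher (62 genes) and 0.031% called lower (4 genes). At an unadjusted p below 0.05, 8 histone genes were higher, against 9.56% of all tested genes, and 0 were lower, against 6.81%. The 8 include H2AC11, which passed the filter through no Vector library. DESeq2's Wald test called the same 3 histone genes and no other. Because RNA came from whole cultures, more cells containing a transcript and more transcript per cell cannot be told apart.

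**Figure D3:**
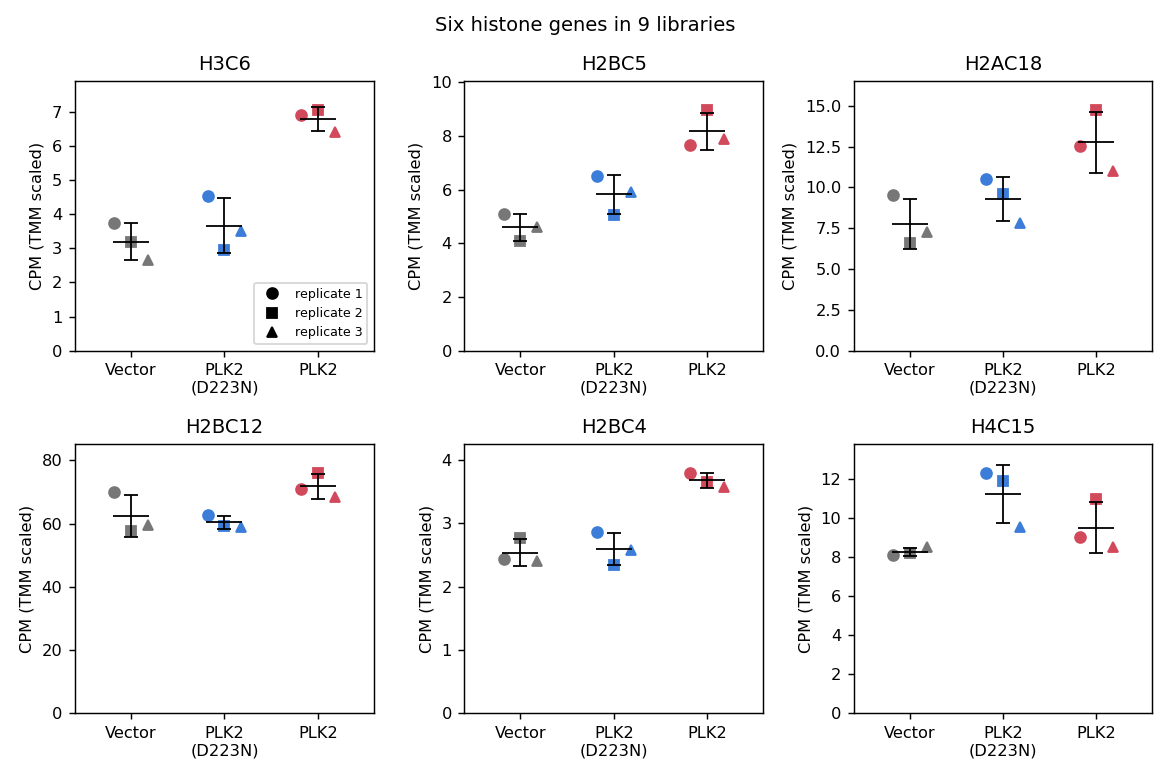
CPM of 6 histone genes in the 9 libraries, by group (axes start at 0); symbols are replicates and black bars the mean and SD of 3 libraries. H3C6, H2BC5 and H2AC18 were higher in each PLK2 library than in any Vector or PLK2(D223N) library, whereas H4C15 was highest in PLK2(D223N) replicates 1 and 2.

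H3C6 (NCBI gene 8353, chr6:26224199-26227473, plus strand), which encodes a replication-dependent H3, was at 3.74, 3.19 and 2.64 CPM in the Vector libraries. It was at 4.53, 2.96 and 3.50 CPM with PLK2(D223N) and at 6.90, 7.05 and 6.40 CPM with PLK2. The PLK2 libraries lay above all others, and those of the other groups overlapped. The log2 fold change between PLK2 and Vector was 1.08 (SE 0.16, adjusted p = 0.00522), that between PLK2 and PLK2(D223N) was 0.89 (SE 0.16, adjusted p = 0.0323), and that between PLK2(D223N) and Vector was 0.20 (SE 0.18, adjusted p = 0.691). Without PLK2 replicate 2 the first was 1.05 and no longer passed (adjusted p = 0.0660). The second did not pass without any single PLK2 library, nor when PLK2(D223N) replicate 2 or 3 was left out (highest adjusted p = 0.250), nor with limma on log2(TPM + 1) (adjusted p = 0.118).

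H2BC5 (NCBI gene 3017, chr6:26158146-26171349, plus strand), an H2B gene with a spliced isoform in the annotation, was at 5.11, 4.09 and 4.61 CPM in the Vector libraries. With PLK2(D223N) it was at 6.52, 5.06 and 5.90 CPM, and with PLK2 at 7.66, 8.97 and 7.90 CPM. The PLK2 libraries were again above all others, and PLK2(D223N) replicate 2 lay just below the highest Vector library. The log2 fold change was 0.82 for PLK2 against Vector (SE 0.13, adjusted p = 0.00789), 0.33 for PLK2(D223N) against Vector (SE 0.14, adjusted p = 0.574) and 0.49 for PLK2 against PLK2(D223N) (SE 0.12, adjusted p = 0.254). The first did not pass without PLK2 replicate 2 (adjusted p = 0.0859), and the third passed in the fit to the 6 libraries compared and without Vector replicate 1 (lowest adjusted p = 0.00917).

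H2AC18 (NCBI gene 8337, chr1:149842188-149842736, minus strand), the H2A gene with an identical copy, was at 9.51, 6.59 and 7.25 CPM in the Vector libraries. It was at 10.5, 9.57 and 7.81 CPM with PLK2(D223N) and at 12.5, 14.7 and 11.03 CPM with PLK2. Vector and PLK2(D223N) libraries overlapped, and each PLK2 library was above them. Its log2 fold change between PLK2 and Vector was 0.70 (SE 0.15, adjusted p = 0.0479), at the edge of the threshold, and the call was lost under 9 of 19 alternatives, among them the removal of Vector replicate 3 or of any 1 PLK2 or PLK2(D223N) library (highest adjusted p = 0.284). Against PLK2(D223N) the log2 fold change was 0.46 (SE 0.14, adjusted p = 0.50), and it passed in the fit to the 6 libraries compared and without Vector replicate 1 (lowest adjusted p = 0.00448).

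**Figure D4:**
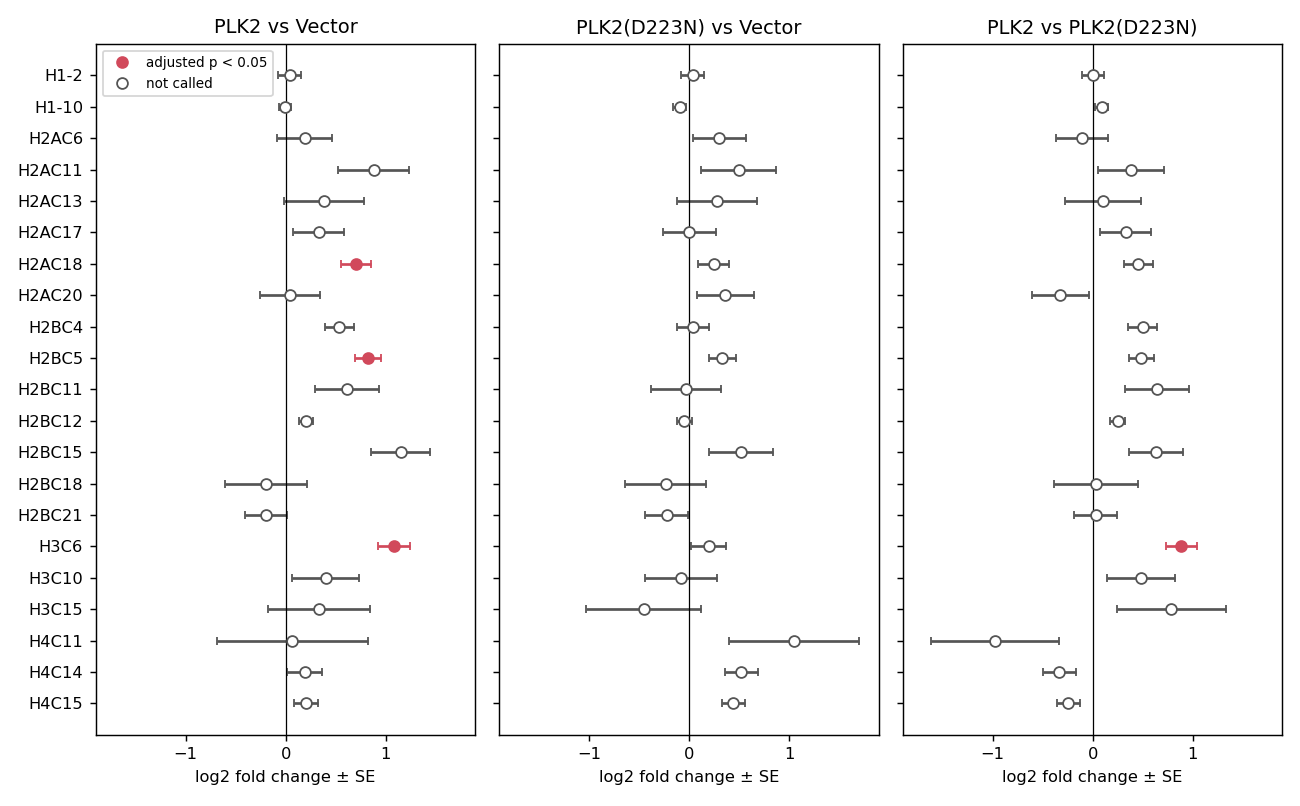
Log2 fold change ± SE of 21 tested histone genes in the 3 comparisons, from edgeR's quasi-likelihood fit; filled red circles have an adjusted p below 0.05. In PLK2 vs Vector 18 of 21 genes lie right of 0, and only H3C6 is called in PLK2 vs PLK2(D223N).

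The remaining tested members lay mostly above 0 between PLK2 and Vector without passing the test. Of the 22 tested members 19 had a log2 fold change above 0, against 48.9% of all tested genes. The median of the 22 was 0.28 against -0.004 over all tested genes. The 19 include H2AC11, whose direction the filter favoured, since it passed through PLK2 and PLK2(D223N) libraries only. Over all 61 members, tested or not, the mean CPM was higher with PLK2 in 47 and lower in 12, against 50.5% of all genes in the table higher. In 14 of the 61 the libraries did not overlap and were higher in PLK2, against 9.13% of all genes in the table, and in 0 they were lower without overlap, against 8.11%. These groups were compared in CPM. In estimated counts 9 of the 14 were also apart, and the other 5 were separated by library scaling alone. Vector replicate 1 had the highest of the 3 Vector values for H2AC18, H2BC5, H2BC12, H2BC15 and H3C6. Without it 7 members were called, among them H1-4, H2BC12 and H2BC15 besides the 3 above. Without Vector replicate 2 there were also 7, now with H1-4, H2AC15, H2BC4 and H2BC15, and without PLK2 replicate 2 there were 0. With either Vector library left out the filter asked for fewer libraries, and 26 members were tested. The share of all tested genes called in these fits is not given here. These counts therefore cannot be read as particular to histone genes. H1-4 and H2AC15 entered there only through PLK2 libraries, where they are high, so the filter favoured these calls. H3C6 and H2BC5 each kept their call under 18 of 19 alternatives.

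No tested linker histone gene was called. H1-10, a replication-independent linker histone, was at 74.8 ± 6.5 CPM in Vector, 70.0 ± 2.3 CPM in PLK2(D223N) and 74.5 ± 1.6 CPM with PLK2, and H1-2, a replication-dependent one, at 15.3 ± 1.5, 15.7 ± 2.0 and 15.8 ± 1.9 CPM (SD, n = 3 each). The sign of the difference between PLK2 and Vector in H1-10 (-0.0072, SE 0.06) and H1-2 (0.04, SE 0.11) changed with single libraries. Among the 6 untested H1 genes, H1-4 had 8, 5 and 4 counts in Vector, 7, 8 and 6 in PLK2(D223N) and 10, 20 and 19 in PLK2 libraries. H1-1 and H1-3 had at most 7 counts in a library, and the lowest PLK2 library of each tied in counts with Vector replicate 1.

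Of the H2A genes other than H2AC18, all 5 tested had log2 fold changes above 0 between PLK2 and Vector. They include H2AC11, which passed the filter through no Vector library. H2AC11, with its divergent stem-loop, had 7, 7 and 6 counts in Vector, 7, 8 and 14 in PLK2(D223N) and 10, 14 and 13 in PLK2 libraries, a log2 difference between PLK2 and Vector of 0.88 (SE 0.36, adjusted p = 0.254). H2AC13 (0.39, SE 0.40), H2AC17 (0.33, SE 0.25), H2AC6 (0.19, SE 0.28) and H2AC20 (0.04, SE 0.30) had overlapping libraries at 0.4 to 1.8 CPM, and H2AC20 and H2AC6 changed sign under some alternatives. H2AC15 was too low to test, with 5, 5 and 1 counts in Vector, 9, 3 and 6 in PLK2(D223N) and 11, 9 and 11 in PLK2 libraries.

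The H2B genes spanned the widest range. H2BC12 was at 69.8, 57.6 and 59.5 CPM in Vector, 62.7, 59.3 and 59.1 CPM in PLK2(D223N) and 70.9, 76.1 and 68.4 CPM in PLK2 libraries. The PLK2 libraries lay above those of PLK2(D223N) but overlapped with Vector replicate 1, and the log2 fold change was 0.20 against Vector (SE 0.07, adjusted p = 0.206) and 0.25 against PLK2(D223N) (SE 0.07, adjusted p = 0.423). The first passed without Vector replicate 1 and after the removal of GC and length trends (highest adjusted p = 0.0283 of these), and the second in the fit to the 6 libraries compared and after that removal (highest adjusted p = 0.00263 of these). H2BC15 had the highest estimate of the tested members, 1.15 (SE 0.29, adjusted p = 0.0958), on 22, 8 and 11 counts in Vector, 21, 21 and 18 in PLK2(D223N) and 31, 37 and 23 in PLK2 libraries, and passed without Vector replicate 1 or 2 and after the removal of GC and length trends. H2BC4, which shares its stem-loop sequence with H2BC5, was at 2.44, 2.78 and 2.40 CPM in Vector, 2.86, 2.35 and 2.58 CPM in PLK2(D223N) and 3.80, 3.65 and 3.57 CPM in PLK2 libraries, and its log2 difference from Vector was 0.54 (SE 0.15, adjusted p = 0.121), which passed without Vector replicate 2 (adjusted p = 0.0349). Its PLK2 libraries were above all others. H2BC11 had a log2 fold change of 0.61 (SE 0.32). H2BC21 (-0.20, SE 0.21) and H2BC18 (-0.20, SE 0.41), both on chromosome 1, were among the 3 tested members below 0.

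The other tested H3 genes, H3C10 and H3C15, were at 0.4 to 0.8 and 0 to 1.0 CPM, with log2 fold changes between PLK2 and Vector of 0.40 (SE 0.34) and 0.33 (SE 0.51). H3C2 and H3C12 were too low to test. H3C2 had 9, 4 and 5 counts in Vector, 9, 5 and 3 in PLK2(D223N) and 9, 13 and 10 in PLK2 libraries, with a tie between PLK2 and Vector replicate 1. H3C12 had 2, 2 and 1 counts in Vector, 1, 8 and 5 in PLK2(D223N) and 8, 6 and 9 in PLK2 libraries, so that each PLK2 library was above each Vector library.

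The pair H4C14 and H4C15 was highest on average with PLK2(D223N). H4C15 was at 8.08, 8.19 and 8.48 CPM in Vector, 12.3, 11.9 and 9.53 CPM in PLK2(D223N) and 8.99, 10.96 and 8.53 CPM in PLK2 libraries. The PLK2(D223N) libraries were above all Vector libraries and overlapped with PLK2. H4C14, whose reads were shared with H4C15, was at 2.20, 2.29 and 1.97 CPM in Vector, 3.48, 3.02 and 2.77 CPM in PLK2(D223N) and 2.66, 2.56 and 2.13 CPM in PLK2 libraries. The sum of the pair, which does not depend on how reads were split, was 173, 151 and 169 counts in Vector, 254, 241 and 200 in PLK2(D223N) and 184, 211 and 169 in PLK2 libraries. Its log2 fold change between PLK2(D223N) and Vector was 0.46 (SE 0.11, adjusted p = 0.442), and it was 0.20 (SE 0.11, adjusted p = 0.371) between PLK2 and Vector. Neither passed the test. Other H4 genes did not share this order: H4C5, too low to test, had 8, 2 and 4 counts in Vector, 7, 6 and 4 in PLK2(D223N) and 10, 10 and 7 in PLK2 libraries, and the sum of H4C11 and H4C12 had the same mean with both forms of the kinase.

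**Figure D5:**
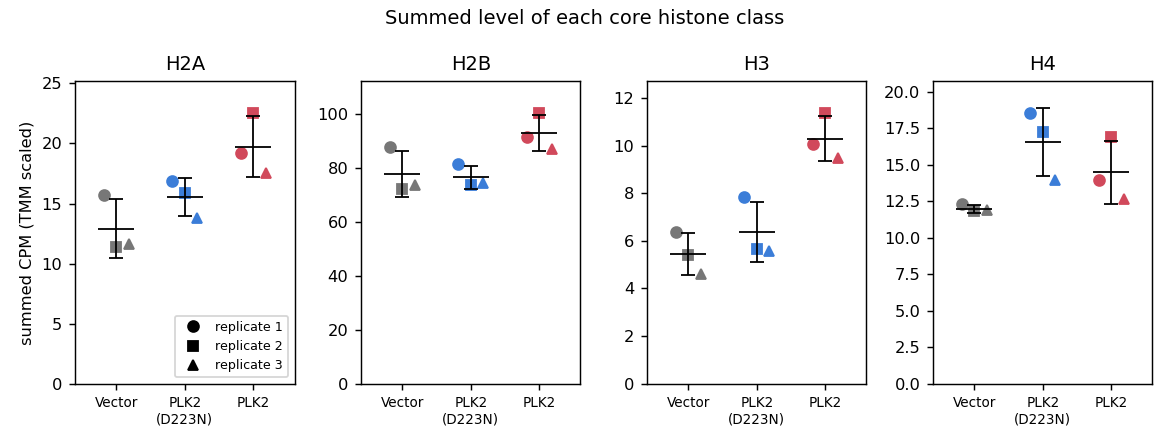
Summed CPM of all members of each core histone class in the 9 libraries, by group (each axis starts at 0); symbols are replicates and black bars the mean and SD of 3 libraries. The H3 and H2A sums were highest in the PLK2 libraries, and the H4 sum was highest on average with PLK2(D223N).

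Class sums, which do not depend on how counts were divided within a class, followed the leading genes. H3 summed to 5.46 ± 0.88 CPM in Vector, 6.37 ± 1.26 CPM in PLK2(D223N) and 10.3 ± 0.96 CPM in libraries with PLK2 (SD, n = 3 each), and without H3C6 to 2.27 ± 0.33, 2.70 ± 0.60 and 3.51 ± 0.68 CPM. H2A summed to 12.9 ± 2.5, 15.5 ± 1.6 and 19.8 ± 2.5 CPM, and without H2AC18 to 5.13 ± 0.98, 6.24 ± 0.24 and 6.98 ± 0.68 CPM. In CPM the PLK2 libraries were above all Vector libraries in both classes, with and without the leading gene. In estimated counts PLK2 and Vector libraries overlapped in the H2A sum without H2AC18. H2B summed to 77.8 ± 8.6, 76.5 ± 4.2 and 93.0 ± 6.6 CPM, with the libraries of PLK2 and Vector overlapping. Without H2BC12 the remaining 14 H2B genes summed to 15.5 ± 2.1, 16.1 ± 2.2 and 21.2 ± 2.7 CPM. The PLK2 libraries lay above the others in CPM, by a narrow margin (18.81 in PLK2 replicate 3 against 18.63 in PLK2(D223N) replicate 1). In estimated counts PLK2 and Vector libraries overlapped in this sum. H4 summed to 11.99 ± 0.28, 16.6 ± 2.3 and 14.5 ± 2.2 CPM. With 3 libraries a group, an exact permutation test cannot go below 0.1, and the sums were not tested.

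Between PLK2(D223N) and Vector no histone gene was called. At an unadjusted p below 0.05 there were 4 higher and 0 lower, against 5.22% and 3.3% of all tested genes, and DESeq2's Wald test called 0. Of all tested genes 0.0232% were called higher (3 genes), so this comparison made few calls anywhere. The median log2 fold change of the 22 tested members was 0.17, with 15 above 0 (against 52.7% of all tested genes). H2AC11, which passed the filter through no Vector library, is among the 15. Of all 61 members 37 had a higher mean CPM with PLK2(D223N), against 52.3% of all genes in the table. The libraries did not overlap for 5 of the 61, all higher (6.12% of all genes were higher and 5.75% lower without overlap). They were the tested H4C11, H4C14 and H4C15, and H1-6 and H2AC4, which were too low to test. H4C11, H1-6 and H2AC4 tied or overlapped in counts and were separated by scaling alone. This comparison and that of PLK2 with Vector share the Vector libraries, so their values are not independent.

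Between PLK2 and PLK2(D223N), where the share called was 0.155% higher (20 genes) and 0.00774% lower (1 gene), H3C6 was the only histone gene called. At an unadjusted p below 0.05, 6 histone genes were higher and 0 lower, against 2.98% and 3.06% of all tested genes. Of the 22 tested members 17 were above 0, against 47.9% of all tested genes, with a median of 0.18. All 7 tested H2B and 3 H3 members were above 0, and all 3 H4 members were below it. For H3C15 and H4C11 the difference depended on the division between copies. The summed CPM of H3C15 with H3C14 and of H4C11 with H4C12 gave log2 ratios of 0.0019 and 0.038. The first sum is near 0 and the second has the opposite sign to H4C11 alone. Of all 61 members 44 had a higher mean CPM with PLK2, against 49.3% of all genes in the table. The libraries did not overlap for 17 of the 61 members with higher values in PLK2 (10.2% of all genes in the table) and for H4C14, which was lower (7.55% of all genes), with a log2 difference of -0.33 (SE 0.16, adjusted p = 0.860). The tested among the 17 included H1-10, H2AC18, H2BC4, H2BC5, H2BC11, H2BC12, H2BC15 and H3C6, and the untested H1-1, H1-3, H1-4, H2AC8, H2AC15, H2BC7, H3C2 and H4C5. In estimated counts 7 of the 17 were apart, and the other 10, which include all of these untested members but H1-4, tied or overlapped and were separated by scaling alone.

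Features that the gene names do not carry gave the following split between PLK2 and Vector. On chromosome 6 all 13 tested members had log2 fold changes above 0, with a median of 0.40. H2AC11, which passed the filter through no Vector library, is among these 13. On chromosome 1, 5 of 7 were above 0, with a median of 0.19. The 16 tested members with a poly(A) signal at an annotated end had a median of 0.37 and included the 3 called genes. They also included H4C11, whose annotated end lies 6 bases past its stem-loop. The 6 in which none was found had a median of 0.20. Among these 6, H1-2, H2AC17, H2AC20 and H2BC12 have no annotated 3′ untranslated region in which to search. The 7 tested members with fewer than 50% unique windows had a median of 0.33, and the 15 others a median of 0.24. These medians are descriptions of few genes, and the differences between them were not tested.

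Of the 6 lists of related genes, 5 held no called gene between PLK2 and Vector. Of 11 tested histone genes outside the naming rule, among them H2AZ1, H3-3A, H2AX and MACROH2A1, 0 were called in any comparison by edgeR or DESeq2. At an unadjusted p below 0.05, 1 was lower between PLK2 and Vector, MACROH2A2 (-0.13, SE 0.06, adjusted p = 0.294), and their median was -0.04 there. H2AW (-0.29, SE 0.19) and H2AJ (0.31, SE 0.24) were the next by p. Their levels in Vector libraries ran from 1.69 ± 0.31 TPM for H3-5 to 923 ± 21 TPM for H3-3A and 2199 ± 48 TPM for H2AZ1, and 7 of the 11 were below the 222 ± 12 TPM of H2BC12 (SD, n = 3 each).

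Of 22 genes for the 3′ processing and decay of histone mRNA, among them SLBP and the U7 snRNP, 0 were called by either tool. CASP8AP2, which takes part in histone gene expression, was at 110 ± 20 CPM in Vector, 128 ± 1.4 CPM in PLK2(D223N) and 139 ± 6.2 CPM in PLK2 libraries, a log2 fold change between PLK2 and Vector of 0.34 (SE 0.09, adjusted p = 0.122). CASP8AP2 passed at 0.20 without Vector replicate 1 (adjusted p = 0.00439), at 0.46 without Vector replicate 2 (adjusted p = 0.00102) and at 0.19 after the removal of GC and length trends (adjusted p = 0.0360). UPF1, a helicase of histone mRNA decay, was at -0.18 (SE 0.06, adjusted p = 0.163) and LSM11, a subunit of the U7 snRNP, at -0.15 (SE 0.05, adjusted p = 0.217). Of the 22 genes, 2 were higher and 2 lower at an unadjusted p below 0.05. For transcription at the histone loci 9 genes were tested and 0 called by either tool, with 1 higher and 1 lower at an unadjusted p below 0.05. They included POU2F1, the octamer-binding factor (0.16, SE 0.06, adjusted p = 0.236), CCNE1, the cyclin that acts on NPAT (-0.15, SE 0.07, adjusted p = 0.291), and NPAT, the coactivator of histone genes (0.18, SE 0.10, adjusted p = 0.352). NPAT was at 0.041 without Vector replicate 1, and at 0.29 and called without Vector replicate 2 (adjusted p = 0.0252).

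Of 32 genes of the G1/S transition and DNA replication, 0 were called by either tool between PLK2 and Vector, 0 were higher and 2 lower at an unadjusted p below 0.05, and their median log2 fold change was -0.012. RRM2, a subunit of ribonucleotide reductase, measured 339 ± 19 CPM with Vector and 308 ± 6.6 CPM with PLK2 (log2 difference -0.14, SE 0.05, adjusted p = 0.221), and UNG, a uracil DNA glycosylase, was at -0.12 (SE 0.06, adjusted p = 0.321). Of 13 genes of canonical cleavage and polyadenylation 0 were called by either tool, with 3 higher and 0 lower at an unadjusted p below 0.05 and a median of 0.04. These 3 were PCF11, a cleavage factor (0.31, SE 0.09, adjusted p = 0.154), CSTF3, a subunit of the cleavage stimulation factor (0.22, SE 0.07, adjusted p = 0.162), and PAPOLA, a poly(A) polymerase (0.16, SE 0.07, adjusted p = 0.292). Neither the cell cycle nor the length of poly(A) tails was measured, and their part in the histone values was not tested.

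Of 21 histone chaperones 1 was called, HJURP, the chaperone of the centromeric H3 variant CENPA. HJURP was at 63.5 ± 2.6 CPM in Vector, 62.1 ± 2.1 CPM in PLK2(D223N) and 80.9 ± 0.6 CPM in PLK2 libraries. It rose by a log2 difference of 0.35 over Vector (SE 0.05, adjusted p = 0.00763) and of 0.38 over PLK2(D223N) (SE 0.05, adjusted p = 0.00490). The first call did not pass without any single PLK2 library or in the fit to the 6 libraries compared (highest adjusted p = 0.0756). For CENPA itself the log2 difference was 0.06 (SE 0.07, adjusted p = 0.640). The next chaperones by p were ANP32E, which removes H2A.Z (0.20, SE 0.08, adjusted p = 0.236), ATRX, a partner in H3.3 deposition (0.22, SE 0.10, adjusted p = 0.278), and UBN1, a subunit of the HIRA complex (-0.12, SE 0.06, adjusted p = 0.291).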

How the data were processed

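The members and the lists of related genes were chosen with earlier results of these data known. The authors deposited 1 table of 9 libraries with estimated counts per gene, TPM and 18 further columns (FPKM, scaled counts), which were left aside. Bowtie2, RSEM 1.3.1 and DESeq2 1.4.5 are named as tools, and GRCh38.p13 as build, per the submitters' processing notes. Their roles, the gene models and strandedness were not given in the sources used here. Groups came from the labels. A Vector title with 2 letters exchanged was matched to its column by number and by elimination.

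The deposited estimated counts were rounded. Genes passed filterByExpr on the group (a CPM cutoff of 0.621, set by 10 counts, in at least 3 libraries, and 15 counts in all), libraries were scaled by TMM, and all 9 entered edgeR 4.0.16 (glmQLFit robust, glmQLFTest) with the group as the only term. P-values are two-sided, Benjamini-Hochberg adjusted over 12924 genes, and called below 0.05. Library totals were 14288165 to 16510186 counts, so the filter's cutoff is about 10 counts. TPM is the authors' deposited value and served for levels between genes. All tested members and, per list, called genes and the next 3 by p are named. Untested members are named where the groups did not overlap, or where copies required it. A single member counts in the totals and is otherwise not reported here. The fit was tested on simulated counts.

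Alternatives were DESeq2 1.42.0 size factors, its Wald test, TMM without PLK2, all genes with 1 count or more, a stricter filter (10 counts in each library of a group and 1 CPM), the 6 libraries compared, a replicate term, limma 3.58.1 on log2(TPM + 1), removal of GC and length trends (loess, span 0.3, with values for all 22 tested members) and omission of each library. Summing 4 pairs of near-identical copies was added after seeing the data. R 4.3.3 and Python 3.11.15 were used.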

Additional observations from a re-analysis of the deposited data

Results flagged for a closer look

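H3C6 differed between the libraries with PLK2 and those with PLK2(D223N) when that difference itself was tested. Its log2 fold change was 0.89, and each PLK2 library was above each PLK2(D223N) library. The call was lost under 6 of 19 alternatives: without any single PLK2 library, without PLK2(D223N) replicate 2 or 3, and with limma (highest adjusted p = 0.250).

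HJURP, the CENPA chaperone, also differed between PLK2 and PLK2(D223N), with a log2 fold change of 0.38. The calls of HJURP in this comparison did not pass without PLK2 replicate 2 or PLK2(D223N) replicate 1 or 2 (highest adjusted p = 0.0640).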

How the results depend on the processing

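With each library left out in turn, the number of histone genes called ranged from 0 to 7 in PLK2 vs Vector, from 0 to 1 in PLK2(D223N) vs Vector and from 0 to 4 in PLK2 vs PLK2(D223N). The set of members tested changed too, since the filter then asked for fewer libraries. For the alternatives in this paragraph the share of all tested genes called is not given here, so the counts cannot be set against it. Removing GC and length trends gave 6 calls in the first and 2 in the last comparison, the fit to the 6 libraries compared gave 2 in the first and 4 in the last, and limma on log2(TPM + 1) gave 2 and 0. DESeq2 size factors, the Wald test, TMM without PLK2, both filters and the summing of copies left the counts at 3, 0 and 1. The replicate block also gave 3, 0 and 1 and changed no member's call. Same-numbered libraries had correlations of -0.11 to 0.14 of their deviations, and differently numbered ones of -0.22 to 0.12. These values do not show pairing by number and cannot exclude it.

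Without the highest member, the log2 ratio of class sums between PLK2 and Vector was 0.46 for H2B and 0.63 for H3, and between PLK2 and PLK2(D223N) 0.16 for H2A, 0.40 for H2B and 0.38 for H3. For H4 it went from 0.27 to 0.42 between PLK2 and Vector and from -0.19 to -0.096 between PLK2 and PLK2(D223N), within the spread of the libraries. As sums of TPM, H3 gave 0.59 and 0.41 against Vector and PLK2(D223N).

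Some genes that were not called changed sign. With each library left out in turn, the log2 fold change between PLK2 and Vector ranged from -0.0561 to 0.0654 for H1-10, from -0.0229 to 0.13 for H1-2, from -0.12 to 0.24 for H2AC20, from -0.0031 to 0.35 for H2AC6, from -0.73 to 0.0130 for H2BC18 and from -0.80 to 1.00 for H4C11, whose counts moved to its copy. Between PLK2(D223N) and Vector it ranged from -0.10 to 0.0431 for H2BC12 and from -0.0374 to 0.10 for H2BC4. H1-10 was at 0.00082 without the GC and length trends, and with limma H2AC20 was at -0.0144 between PLK2 and Vector and HJURP at 0.0201 between PLK2(D223N) and Vector. The cause was not tested.

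Depth limits these genes: 39 of 61 were too low to test. Selection of polyadenylated RNA and the wide spread of the Vector libraries touch these values, and reads shared between copies touch the members without unique sequence throughout.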
